A study of Mus musculus with 4 samples.

Results

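Transcripts of 34 genes that mark the segments of the kidney nephron were followed across 3 arrays of newborn mouse ureter and 1 array of whole newborn mice. The genes are textbook markers of the glomerulus, the tubule segments and the nephron progenitors. Every probe set annotated to exactly 1 of these symbols was taken, which gave 66 of the 45101 probe sets on the array and 33 of the 34 genes, out of 18193 genes named by 1 symbol. Ggt1 had no probe set of its own and was not analysed here. The set was put together with results of these arrays already known, including how its genes lay on the ureter and reference arrays. The values of the 33 genes are therefore given as a description, and nothing rests on a test of them.

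All samples came from FVB/N mice at postnatal day 1 (Theiler stage 27). The 3 ureter samples were whole ureters from male SMGA/EGFP transgenic mice, a transgene named after smooth muscle gamma-actin, dissected free of kidney and bladder and not pooled. The reference was a pool of whole animals of both sexes with no transgene reported, so tissue, sex, transgene and pooling change together between the groups. All RNA went through 2 rounds of amplification before labelling. The labels do not state whether each ureter sample was from a different animal, and the spread between them may be technical.

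The nephron filters blood in the glomerulus, where podocytes hold back protein. The proximal tubule then reclaims glucose, phosphate, amino acids and filtered protein and secretes organic anions. The thick ascending limb and the distal convoluted tubule recover salt, and the collecting duct, which grows from the same bud as the ureter, sets the final urine. The ureter only carries the urine away, and its own wall is urothelium and smooth muscle.

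Values are intensities in arbitrary units after quantile normalization, and each gene is given by its brightest probe set unless another is named. An array's background was set at its brightest control probe set for bacterial RNA, which lay at 94.2, 188 and 134 on the arrays of ureter replicates 1, 2 and 3 and at 127 on the reference array. Intensities rank 1 gene across arrays and do not rank genes against one another. Folds are on the scale log2(intensity + 12.23), which understates the change of dim genes. In bulk tissue, fewer cells of a type and less RNA per cell cannot be told apart.

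Tubule genes differed most between the ureter arrays. Of the 25 tubule and duct genes measured, 18 were lowest in ureter replicate 1, against 3949 of all 13714 genes tested. At background in replicate 1 but above it in replicates 2 and 3 were 6 of the 25. How many of all genes had this pattern was not counted. Of the 31 genes that passed the filter on dim probe sets, 19 differed over 2-fold between the highest and the lowest ureter, against 22.9% of all 13714 genes tested. In 14 of the 31, replicate 1 lay over 2-fold below both other ureters, against 2.91% of all genes tested. Since the genes were chosen with these arrays known, nothing is read from these shares. The gene just inside that limit was Podxl, 1.09 below replicate 3 on the log2 scale, and the gene just outside was Slc27a2, 0.96 below it. Nphs1 and Cited1 did not pass the filter. Of the 33 genes, 25, 29 and 30 were above background on the arrays of replicates 1, 2 and 3 and 30 on the reference array, where 94.1%, 87.8%, 92.7% and 97.1% of all genes tested were.

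**Figure D1:**
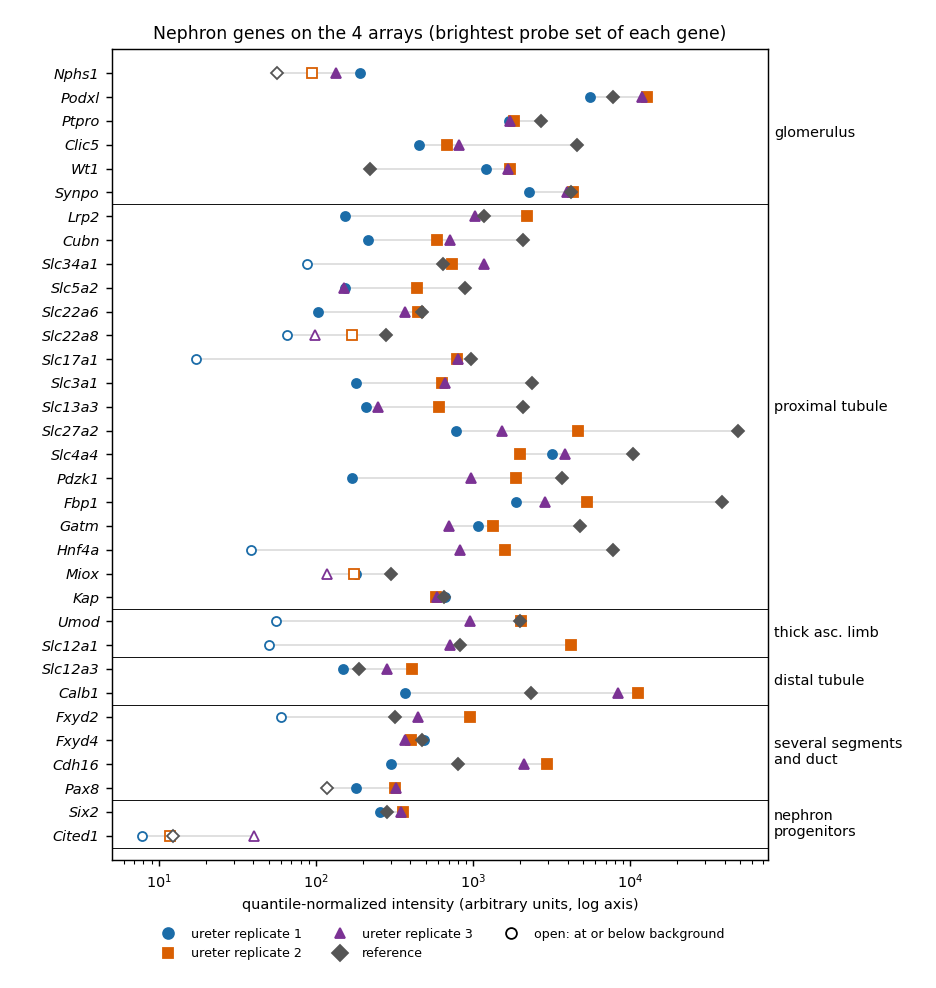
Quantile-normalized intensity (arbitrary units, log axis) of the brightest probe set of each of the 33 genes on the 3 ureter arrays and the reference, grouped by segment; open symbols lie at or below that array's background. Replicate 1 is open while replicates 2 and 3 are filled for 6 genes, Slc34a1, Slc17a1, Hnf4a, Umod, Slc12a1 and Fxyd2.

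The thick ascending limb showed the widest gap by median. Umod, which encodes uromodulin, the main protein of normal urine, had intensities of 55.7, 2019 and 961 in ureter replicates 1, 2 and 3 and 2002 in the reference. Replicate 1 was at background, replicate 2 stood at about the reference and replicate 3 lay between, so the highest ureter was at least 19.1-fold above the lowest. The other Umod probe set gave the same order, with 43.3, 742 and 307 in the ureters and 693 in the reference. Slc12a1, the sodium-potassium-chloride cotransporter that loop diuretics block, had 50.2, 4205 and 711 in the ureters and 828 in the reference. It was at background in replicate 1, and replicate 2 was at least 39.6-fold above it and 5.83-fold above replicate 3. A second Slc12a1 probe set was at or below background on all 4 arrays. Both genes had a log2 standard deviation (SD) over the 3 ureters of 2.58 for Umod and 3.05 for Slc12a1, where the median over all genes tested was 0.33.

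In the distal tubule, Calb1, a calcium-buffering protein of the distal convoluted tubule and connecting segment that ureteric bud epithelium also makes, had intensities of 369, 11180.2 and 8381 in the ureters and 2358 in the reference. Replicates 2 and 3 were 29.3-fold and 22-fold above replicate 1, and the reference lay between. A further Calb1 probe set repeated the order at 106, 755 and 553, with the reference at background, another was above background in replicate 2 alone, and the last was at background everywhere. Slc12a3, the thiazide-sensitive sodium chloride cotransporter of the distal convoluted tubule, had 150.0, 412 and 284 in the ureters and 187 in the reference. Replicate 2 was 2.62-fold above replicate 1 and replicate 3 was 1.83-fold above it, all of them dim.

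Proximal tubule genes were measured for 17 of the 18 listed. In 8 of the 17, replicate 1 lay over 2-fold below both other ureters. The endocytic receptor pair that takes up filtered protein was among them. Lrp2, which encodes megalin, had intensities of 153, 2219 and 1032 in the ureters and 1181 in the reference. Its partner Cubn, cubilin, had 215, 588 and 709.7 in the ureters and 2086 in the reference. Replicate 1 was above background for both but 13.5-fold below replicate 2 for Lrp2 and 3.18-fold below replicate 3 for Cubn. The dimmer probe sets of the pair did not share this: 1 of Lrp2 had 259, 409 and 301, another 134, 85.7 and 156, and the second of Cubn 103, 96.2 and 244.

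For the apical transporters of phosphate, organic anions and amino acids given next, replicate 1 was again lowest, while replicates 2 and 3 had no common order. Slc34a1, the sodium-phosphate cotransporter NaPi-IIa, had intensities of 87.9, 732 and 1182 in the ureters and 644 in the reference. Slc17a1, another anion and phosphate transporter, had 17.3, 796 and 799, with 972 in the reference. Both were at background in replicate 1, and the highest ureter was at least 11.2-fold and at least 7.62-fold above it. Slc3a1, the heavy chain of the cystine transporter, had 181, 632 and 667 in the ureters and 2387 in the reference. Pdzk1, the scaffold that anchors such transporters in the brush border, had 170.2, 1871 and 971 in the ureters and 3671 in the reference. Replicate 1 was the lowest ureter for all 4 genes, and for Pdzk1 replicate 2 was also 1.91-fold above replicate 3.

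The basolateral organic anion transporters lay closer to background. Slc22a6, known as OAT1, had intensities of 104, 446 and 368 in the ureters and 473 in the reference. Slc22a8, OAT3, had 65.6, 171 and 98.2 in the ureters and 280.4 in the reference, which put every ureter at or below its background. This probe set of Slc22a6 had replicate 1 over 2-fold below both others, but a second had 140.0, 227 and 113, with replicate 3 lowest and the reference at background. Slc22a8 gave only a bound, with the reference at least 2-fold higher. Slc5a2, the glucose transporter SGLT2, had 154, 438 and 152 in the ureters and 884 in the reference, and Slc13a3, a dicarboxylate transporter, had 209, 605 and 248 against 2086. On these probe sets replicate 2 alone was over 2-fold above replicate 1. A second probe set of Slc5a2 had 165, 118 and 157, with replicate 1 highest, and a second of Slc13a3 had 52.3, 56.2 and 136, with replicate 3 alone above background.

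Hnf4a, a nuclear receptor that drives proximal tubule maturation and is also active in liver and gut, had intensities of 38.5, 1598 and 827 in the ureters and 7774 in the reference. Replicate 1 was at background and the highest ureter at least 15.1-fold above it. None of the other 3 Hnf4a probe sets was above background in replicates 2 or 3, and 1 of them was just above it in replicate 1, at 101. HNF1 and HNF4 factors act in the proximal tubule, so both strands of the set's promoters were searched for parts of their sites. These were the letters CAAAGTCC, part of the site that HNF4 proteins bind, and the palindromic core of the HNF1 site. RefSeq promoters (GRCm38.p6, 250 bases before to 50 after the start of transcription) were at hand for 27 of the 34 genes, and not for Podxl, Wt1, Synpo, Slc5a2, Calb1, Fxyd2 and Cdh16. CAAAGTCC was found in 4 of the 27, Slc34a1, Slc3a1, Pdzk1 and Ggt1, and in 1.63% of all 27025 genes with a promoter. The HNF1 core was found in 0 of the 27 and in 0.141% of all genes, which says only that these letters are not in these windows. The promoters of the 3 measured genes are shown. Capitals mark the match, which is a description and not a site of binding. Whether Hnf4a had a part in the levels of these genes was not tested.
Slc34a1, chr13:55399398-55399697, plus strand, match on the opposite strand beginning 7 bases before the start: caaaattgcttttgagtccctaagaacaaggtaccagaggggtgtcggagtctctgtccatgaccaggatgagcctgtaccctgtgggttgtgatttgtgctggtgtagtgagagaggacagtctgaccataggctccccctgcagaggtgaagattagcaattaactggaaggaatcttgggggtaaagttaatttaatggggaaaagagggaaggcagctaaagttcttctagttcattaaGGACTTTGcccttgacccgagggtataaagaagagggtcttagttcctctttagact
Slc3a1, chr17:85028097-85028396, plus strand, match beginning 39 bases before the start: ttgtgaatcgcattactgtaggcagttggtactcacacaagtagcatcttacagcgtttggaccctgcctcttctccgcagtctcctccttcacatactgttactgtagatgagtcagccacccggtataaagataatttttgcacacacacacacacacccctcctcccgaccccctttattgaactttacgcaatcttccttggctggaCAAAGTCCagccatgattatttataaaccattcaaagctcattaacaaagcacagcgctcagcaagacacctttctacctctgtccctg
Pdzk1, chr3:96829815-96830114, plus strand, match beginning 14 bases after the start: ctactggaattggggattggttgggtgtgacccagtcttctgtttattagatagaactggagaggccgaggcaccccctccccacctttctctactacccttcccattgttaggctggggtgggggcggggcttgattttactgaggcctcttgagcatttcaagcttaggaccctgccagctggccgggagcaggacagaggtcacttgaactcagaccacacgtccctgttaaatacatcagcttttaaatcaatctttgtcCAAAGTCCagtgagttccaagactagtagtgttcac

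The metabolic genes Fbp1, Slc27a2 and Gatm of the proximal tubule were far below the reference in every ureter. The reference is of whole animals, so its signal is not that of kidney alone. Fbp1, fructose bisphosphatase of gluconeogenesis, had intensities of 1887, 5341 and 2895 in the ureters and 38658 in the reference. Slc27a2, a fatty acid transporter and acyl-CoA synthetase, had 782, 4679 and 1533 in the ureters and 48479 in the reference. Gatm, the first enzyme of creatine synthesis, had 1083, 1334 and 704 in the ureters and 4834 in the reference. None of the ureters came within 3-fold of the reference for these genes, and replicate 2 was the highest of the ureters for each. Miox, inositol oxygenase, had 179, 176 and 117 in the ureters and 301 in the reference, and was above background in replicate 1 alone among the ureters. Kap, kidney androgen-regulated protein, had 667, 581 and 594 in the ureters and 652 in the reference, all within 1.14-fold among the ureters.

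Slc4a4, the sodium bicarbonate cotransporter, had probe sets that disagreed on the order of the ureters. The brightest had intensities of 3195, 1993 and 3846 in the ureters and 10400.4 in the reference, with replicate 2 lowest. Another pair had 1381, 8328 and 1341, and 983, 5425 and 874, with replicate 2 highest by 6.16-fold and 6.14-fold. A further probe set had 622, 1588 and 1597, with replicate 1 lowest, and the last was above background in replicate 1 alone. No single order of the ureters can be given for Slc4a4.

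Genes found in several segments split into 2 kinds. Cdh16, the kidney-specific cadherin of tubule and duct epithelium, had intensities of 300.2, 2954 and 2122 in the ureters and 804 in the reference. Fxyd2, the gamma subunit of the sodium pump, had 59.7, 954 and 445 in the ureters and 321 in the reference, and the other Fxyd2 probe sets above background had the same order of the ureters. Both were low in replicate 1 and above the reference in replicates 2 and 3, which for Fxyd2 did not hold in replicate 3 as deposited (384 against 443) or on another probe set (349.8 against 410.2). Pax8, a transcription factor of nephron and duct epithelium, had 181, 321 and 322 in the ureters, a 1.73-fold gap between highest and lowest. It was at background in the reference. Fxyd4, a sodium pump regulator of the collecting duct, had 485, 402 and 368 in the ureters and 477 in the reference, with no gap below replicate 1.

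Of the 6 glomerular genes, 1 had replicate 1 over 2-fold below both other ureters. Nphs1, which encodes nephrin of the podocyte slit diaphragm and is the most specific of the 6, had intensities of 192, 94.7 and 135 in the ureters and was at background in the reference. It was near background everywhere and highest in replicate 1. The other 5 are also made outside the glomerulus: Podxl in endothelium, Wt1 in mesothelium and mesenchyme, Synpo and Clic5 in other cells that anchor actin, and Ptpro in neurons. Podxl had 5593, 12822 and 11938 in the ureters and 7810.0 in the reference, so replicate 1 was 2.29-fold below replicate 2, but its second probe set was above background in replicate 1 alone. Wt1, a zinc finger factor, had 1207, 1733 and 1661 in the ureters and 221 in the reference, and Clic5, a chloride channel-like protein, 453, 684 and 814 against 4580.2. For both, all ureters stood on the same side of the reference. A dimmer Clic5 probe set had 57.5, 204 and 276 in the ureters and 355 in the reference, with replicate 1 at background. Synpo had 2277, 4363 and 3960.1 in the ureters and 4207 in the reference, and the phosphatase gene Ptpro had 1697, 1835 and 1720.0 against 2720.4.

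Of the 2 nephron progenitor genes, 1 was bright enough to be tested. Six2, the factor that keeps progenitors from differentiating, had intensities of 257, 361 and 350.1 in the ureters and 284 in the reference, a range of 1.38-fold among the ureters. Cited1, a cofactor of the uncommitted progenitors, was at or below background on all 4 arrays, with 40.6 as its highest value.

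**Figure D2:**
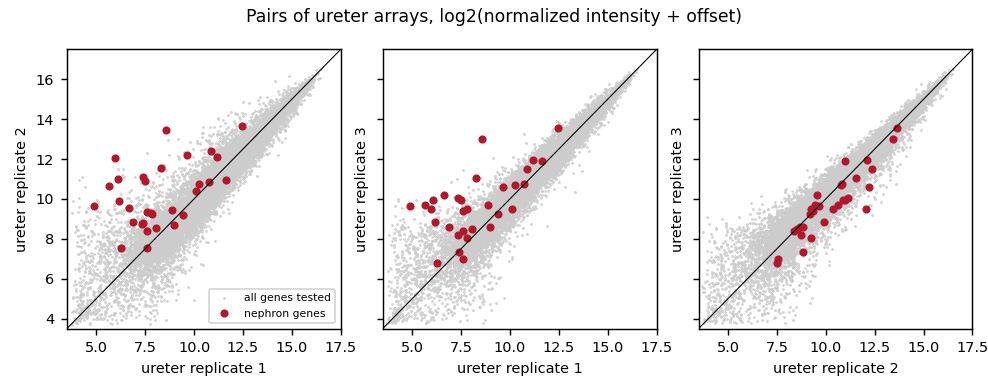
Each panel sets 2 ureter arrays against each other on the log2(normalized intensity + 12.23) scale, with all 13714 genes tested in grey, the 31 nephron genes in red and the line of equality. The red points lie mostly above the line where replicate 1 is on the horizontal axis and mostly below it where replicate 2 is set against replicate 3.

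Replicates 2 and 3 were more alike. Across the 31 genes, Pearson's r of log2 values was 0.90 between replicates 2 and 3, 0.61 between 1 and 3 and 0.46 between 1 and 2; across all 27022 probe sets tested it was 0.93, 0.94 and 0.90. These correlations run across genes on shared arrays and are given as a description. The median log2 difference over the 31 genes was 1.44 for replicate 2 minus replicate 1, 0.87 for replicate 3 minus replicate 1 and 0.42 for replicate 2 minus replicate 3. Over all genes tested the same medians were -0.13, -0.01 and -0.12. Replicate 2 was over 2-fold above replicate 3 for 7 of the 31 genes, and replicate 3 was over 2-fold above replicate 2 for 0. Replicate 2 was the highest ureter, and above background, for 20 of the 31, replicate 3 for 7 and replicate 1 for 3, where 25.0%, 32.0% and 39.0% of all genes tested were highest in replicates 2, 3 and 1. With median-centred arrays, replicates 2 and 3 were each highest for 12, so the order of these 2 depends on the scaling.

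The low values of replicate 1 were also seen under both other scalings. With the arrays as deposited it lay over 2-fold below both others for 18 of the 31 genes, against 4.68% of all genes, and with median-centred arrays for 13, against 2.63%. Of all 66 probe sets of the 33 genes, 51 were above background in at least 1 ureter. Replicate 1 was the lowest ureter for 34 of the 51, and lay over 2-fold below both others for 20. By gene, 3949 of all 13714 genes tested were lowest in replicate 1, and 2.91% lay over 2-fold below both others. The share over all probe sets was not counted. These are probe sets of the same chosen genes, so nothing is read from the counts. Ureter replicate 1 also differed from the others in control probe sets: the ratio of 3' to 5' signal was 38.3 for the transferrin receptor against 2.01 and 2.51 in replicates 2 and 3, and 4.89 for beta-actin against 2.88 and 3.56, while for Gapdh it was 16.6 against 21.6 and 21. The share of all probe sets above background was 66.7% in replicate 1, 53.8% in replicate 2 and 60.2% in replicate 3. The part of RNA quality or amplification in the gap was not tested.

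Against the reference, 5 of the 31 genes passed limma's adjusted p of 0.05 over all probe sets (7.98% of all genes tested did), 1 higher (3.24% of all genes tested were higher) and 4 lower (4.75% were lower). Of the 45 probe sets of the genes that were tested, 5 passed, against 6.37% of all probe sets tested. Since the set was chosen with this comparison known, nothing is read from these counts. Wt1 was the higher gene, by 2.71 ± 0.43 (log2 ureter minus reference ± standard error (SE), n = 3 ureters and 1 reference). The lower genes were Slc27a2 (-4.76 ± 0.90), Fbp1 (-3.64 ± 0.56), Clic5 (-2.83 ± 0.47) and Gatm (-2.25 ± 0.47). With replicate 3 left out, none of the 5 passed, and without the intensity trend only Wt1 did. Wt1 and Gatm did not pass with the arrays as deposited, Clic5 and Gatm with median-centred arrays, Slc27a2 and Gatm without the filter, Clic5 with probe sets averaged and Gatm with an offset of 1. Wt1 had 1 probe set, and a second probe set of Clic5, with 429, 396 and 206 in the ureters and 665 in the reference, did not pass.

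**Figure D3:**
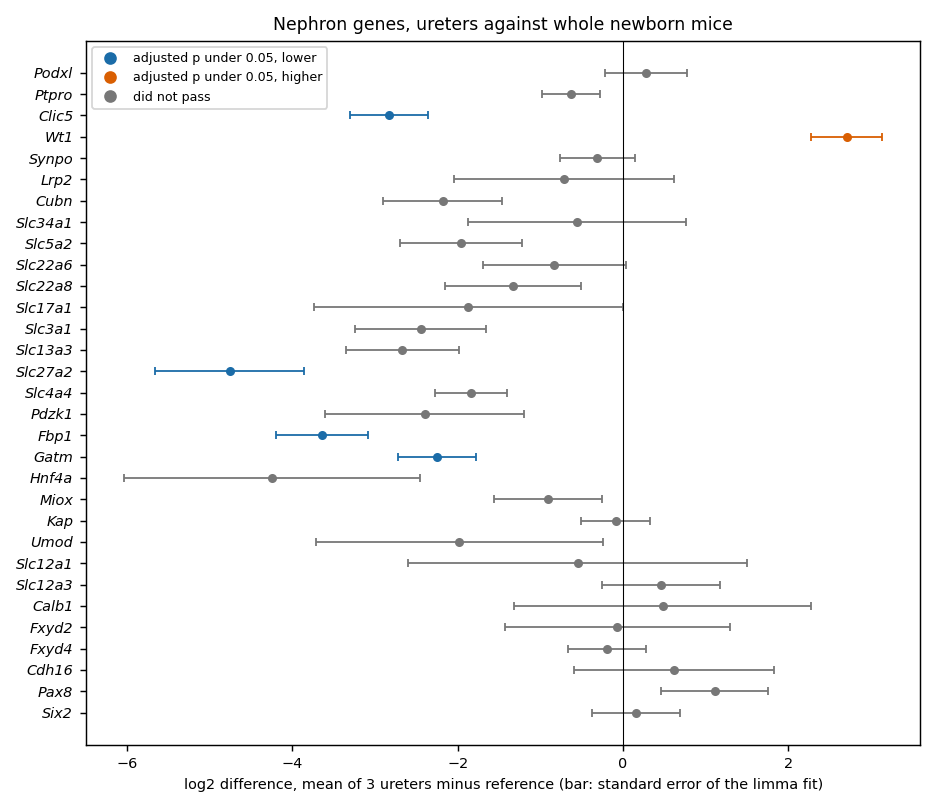
Log2 difference between the mean of the 3 ureters and the reference for the 31 nephron genes tested, with the standard error of the limma fit as bars and colours for genes past an adjusted p of 0.05. Bars are widest for genes low in replicate 1, such as Slc12a1 (-0.55 ± 2.05) and Calb1 (0.48 ± 1.80), and short for Wt1 and Fbp1.

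The genes low in replicate 1 had means that described no single ureter. Slc12a1 differed from the reference by -0.55 ± 2.05, Calb1 by 0.48 ± 1.80, Slc17a1 by -1.87 ± 1.87, Umod by -1.98 ± 1.74 and Lrp2 by -0.71 ± 1.33. Of the 14 genes with replicate 1 over 2-fold below both others, 8 had the reference within the range of the ureters, 6 had it above all of them, and 0 of the 14 passed. When replicate 1 was left out, the difference of Slc12a1 became 1.06, of Fxyd2 0.99, of Slc34a1 0.52 and of Lrp2 0.35, each turned in sign. Calb1 then differed by 2.03 and Hnf4a by -2.74, and Gatm no longer passed limma's threshold. Leaving out the ureter that was low for Calb1 and Hnf4a narrows their spread by construction, so no call of them is read from this fit. By segment, the reference was above all ureters for 14 of 17 proximal tubule genes and for 0 of the 8 genes of the thick ascending limb, the distal tubule and the group found in several segments. Across all genes tested it was above all ureters for 31.5%. The reference is of whole animals and so holds liver and gut, with the liver gene Alb at 83133 and the intestinal gene Fabp2 at 29421. Which tissues gave the reference signal of the proximal tubule genes was not tested, so their count is not read as a difference between nephron segments. The count of 0 depends on the scaling: as deposited, the reference was above all ureters for Umod (2046 against at most 1993) and Fxyd4 (614 against at most 432).

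Other genes of the same segments, listed from textbook knowledge and outside the set, are given next; these lists too were drawn up with results of these arrays known and are no independent check. Of 57 such genes 44 had a probe set of their own, and the rest were not analysed here. Among the 40 tested, 2 were higher in the ureters than in the reference, 2 lower and 36 did not pass, where 3.24% of all genes tested were higher and 4.75% lower. Replicate 1 lay over 2-fold below both other ureters for 14 of the 40, against 2.91% of all genes tested. Among the proximal tubule genes, Slc2a2, the glucose transporter GLUT2, had intensities of 5.01, 1951 and 559 in the ureters and 24370.2 in the reference. Spp2, a secreted phosphoprotein, had 10.2, 659.8 and 727 against 4814. In the thick ascending limb the potassium channel gene Kcnj1 had 13.6, 504 and 227, and the transcription factor gene Irx1 11.3, 461 and 440.1. In the early nephron, Lhx1, a factor of the renal vesicle, had 9.98, 373 and 372, Sall1, a factor of the progenitors, 339, 3328 and 1129, and Gdnf, the signal by which progenitors call the ureteric bud, 21.6, 917 and 489 with the reference at background. Sall1 was above background in every ureter, and the other 6 were at or below it in replicate 1 and above it in replicates 2 and 3. By list, replicate 1 lay over 2-fold below both others for 8 of 17 proximal tubule genes tested. The same held for 3 of 6 thick ascending limb genes and 3 of 8 progenitor and early nephron genes tested.

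Genes named for the highest ureter mean of their list differed in this: the endocytic adaptor gene Dab2 had 20833, 17928 and 17895 in the ureters, the podocyte adaptor gene Cd2ap differed by 1.27-fold and the integrin gene Itga8, which passed as higher than the reference, by 1.35-fold, whereas the dipeptidase gene Dpep1 had 3902, 8865 and 6642, with replicate 1 lowest, and the magnesium channel gene Trpm6 249.6, 202 and 681, with replicate 3 highest. Ptger3 of the thick ascending limb list had 3974, 2674 and 2949.7 in the ureters, with replicate 1 highest, and Cldn10 had 471, 813 and 473. Of the 6 other podocyte genes measured, 0 had replicate 1 over 2-fold below both other ureters, which at the share of 2.91% over all genes is no result about podocytes. Of 18 collecting duct genes with a probe set, 3 did, among them Wnt9b, a signal of the duct stalk, with 40.4, 444 and 217 in the ureters. The water channel gene Aqp3 and Gata3, which urothelium also expresses, were highest in replicate 1. Foxd1, the marker of renal stroma, had 3046, 6450.5 and 5028 in the ureters and 805 in the reference, so it was above the reference in all 3 and passed as higher.

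**Figure D4:**
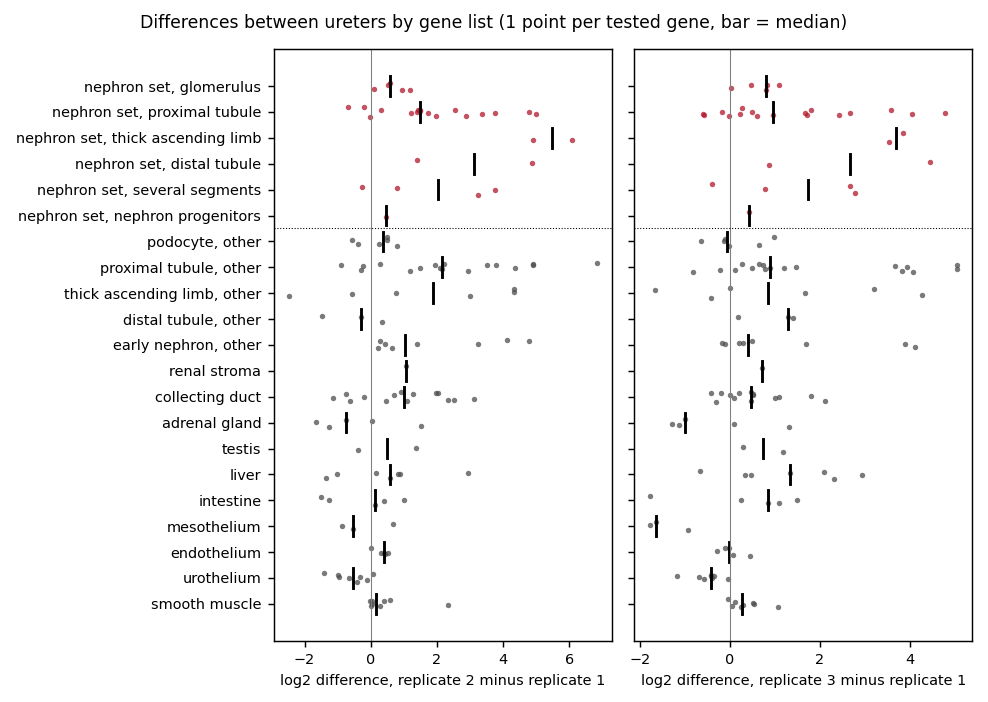
Log2 difference of replicate 2 (left) and replicate 3 (right) minus replicate 1, 1 point for each gene tested, for the nephron set by segment (red) and for other lists (dark grey), with the median of each list as a bar. The medians of the set's thick ascending limb (5.49 and 3.68) and distal tubule genes (3.13 and 2.67) lie farthest to the right, although single proximal tubule genes reach as far, while the medians of urothelium (-0.54 and -0.43) and smooth muscle (0.15 and 0.27) lie near 0.

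Markers of the ureter wall and of neighbouring tissues were set beside the gap. All 8 urothelial and all 8 smooth muscle genes were above background in every ureter, and summed urothelial intensity was 133898, 80291 and 99239 in replicates 1, 2 and 3, against 3996 in the reference. Summed smooth muscle intensity was 151061, 176391 and 175355, against 65089.9 in the reference. Of the 8 urothelial genes 7 were highest in replicate 1. Among smooth muscle genes Myocd, the coactivator of the contractile program, had replicate 1 over 2-fold below both others, with 2603, 13116 and 5477. Of 7 liver genes, Ahsg, Apoa1, Apob and Fgb were at or below background in every ureter. Alb had 129, 1083 and 1070.1 and Ttr 3156, 1229 and 1996. Cps1 had 208, 97.2 and 265, above background in replicates 1 and 3. Of 7 adrenal genes 5, 3 and 4 were above background in replicates 1, 2 and 3, with sums of 2063, 1727 and 1879.7, and of 5 testis genes 2 were above it in each, with sums of 933, 1649 and 1597. The adrenal gene Star (132, 402 and 346) and the testis gene Dhh (441, 1162 and 1008) each had replicate 1 over 2-fold below both others. Each was the only gene of its list that did. The adrenal gene Cyp11a1 had 756, 234 and 373, with replicate 1 highest. The testis gene Inha had 455, 347 and 562, with replicate 2 lowest. Mesothelial genes summed to 28870.1, 18666 and 14079.7. All these sums follow their brightest genes, such as Upk3b of mesothelium (23965, 13033 and 12591), and do not measure how much of a tissue was present. The part of any of these tissues in the gap was not tested.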

How the data were processed

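RNA of 3 ureter samples and 1 pooled whole-mouse sample was hybridised to Affymetrix MOE430 arrays. The authors deposited linear intensities, with 1 value for each probe set on each array; GCOS is named, without a version, in the submitters' processing notes. The deposited intensities have the same mean, 1500, on every array after trimming 2% at each end, while their medians were 154, 259, 187 and 332 in ureter replicates 1 to 3 and the reference. The authors' background correction was not stated in the labels.

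After 64 control probe sets were left out, arrays were quantile normalized and converted to log2(intensity + 12.23), where 12.23 is the 10th percentile over the arrays. Averaging both groups' means, the dimmest 40% of probe sets were dropped and 27022 were tested. limma 3.58.1 in R 4.3.3 (lmFit, eBayes with an intensity trend, two-sided, Benjamini-Hochberg over all probe sets) compared ureters with the reference; its 2 residual degrees of freedom come from the ureters alone, and it was tested on simulated data. Background came from 27 bacterial control probe sets. A fold is written "at least" where the lower side lies at background. Symbols came from the platform annotation, of which the RefSeq table changed 0.

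The 34 genes and all other lists were chosen with earlier results of these data known. All 34 are accounted for. Named from each other list were up to 2 genes with the highest ureter mean and up to 2 with the largest ratio between ureters. Ahsg, Apoa1, Apob, Fgb, Cps1, Slc7a9, Sall1 and Egf were named after their values were seen. The alternatives tried were the scaling, the offset, the filter, the trend, the choice of probe set, the fold and each ureter left out; the number of arrays limits the precision.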

Additional observations from a re-analysis of the deposited data

How the results depend on the processing

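The count of nephron genes with replicate 1 over 2-fold below both others was 14, and 12 to 19 under the alternatives run. The 19 genes over 2-fold apart ranged from 7 to 19 as each ureter was left out, 7 being the value without replicate 1. The 1 higher and 4 lower calls became 0 higher with the arrays as deposited, 2 lower with median-centred arrays, 2 lower without the filter and 0 lower without the trend; with a ureter left out they ranged from 0 to 2 higher and from 0 to 6 lower, with 0 of either without replicate 3. Among the other nephron genes (2 higher, 2 lower), lower calls numbered 1 with an offset of 1, 5 with an offset of 64, 1 without the filter, 0 without the trend and 5 with probe sets averaged, and the higher calls 1 without the trend; leaving out a ureter gave 0 to 3 higher and 0 to 7 lower, with 0 of either without replicate 3. The highest ureter (replicate 1 for 3, 2 for 20 and 3 for 7 genes) became replicate 1 for 0 and replicate 3 for 4 as deposited, and replicates 1, 2 and 3 for 5, 12 and 12 with median-centred arrays. Of 310 values of single genes under alternatives, 14 turned in sign, in 11 genes: Slc12a3 (-0.31) and Six2 (-0.53) as deposited; Ptpro (0.14), Synpo (0.54), Kap (0.26) and Fxyd4 (0.03) with median-centred arrays; Fxyd2 with an offset of 64 (0.05); Lrp2 with probe sets averaged (0.02); and 5 genes as each ureter was left out, with ranges of -1.75 to 0.99 for Fxyd2, -1.52 to 0.35 for Lrp2, -1.27 to 0.52 for Slc34a1 and -1.98 to 1.06 for Slc12a1, each highest without replicate 1, and -0.41 to 2.03 for Calb1, negative without replicate 2 (-0.41) or 3 (-0.20). The median difference of all genes from the reference was 0.10, -0.06 as deposited and 0.73 with median-centred arrays. Placing the background at the 95th percentile of the control probe sets, an alternative chosen after seeing the data, gave 20 genes over 2-fold apart and 14 with replicate 1 below both others. The cause of these changes was not tested. No paired analysis was possible because the reference is 1 pooled array and shares no number with the ureters.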

Other observations

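Across the whole array, 399 of the 13714 genes tested had ureter replicate 1 over 2-fold below both other ureters; 14 belonged to the nephron set and 14 to the other nephron lists. The genes named here were chosen after their values were seen, and where replicate 1 is at background the size of a gap has no order. Replicate 1 was at background for Tinag, a basement membrane protein of the renal tubule, with intensities of 7.17, 2190.1 and 1001 in the ureters and 2130.3 in the reference. The same held for Slc7a9, a cystine transporter subunit, with 9.66, 639 and 352 in the ureters and 7568 in the reference. Igfbp1, an insulin-like growth factor binding protein of liver and kidney, had 5.2, 753 and 782 in the ureters, again with replicate 1 at background, and 62196 in the reference. Replicate 1 was also at background for genes of other tissues. Fgg, a fibrinogen chain of liver, had 3.51, 373 and 406 in the ureters and 64755 in the reference. Myom2, a sarcomere gene, had 5.32, 1064 and 348 against 43398.

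In the other direction, 319 genes (2.33%) had replicate 1 over 2-fold above both other ureters, of which 0 were in the nephron set and 1 in the other nephron lists. That gene was Egf, a growth factor of the thick ascending limb and distal tubule, with intensities of 671, 112 and 203 in the ureters.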
